A study of Mus musculus with 6 samples.

Results

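The fragments described here come from the tRNA that carries histidine and reads its codons with the anticodon GTG, in mouse brain. A fragment ID of the deposited table (tDR, for tRNA-derived small RNA) was a member when every parent tRNA listed for it begins with the name His-GTG and at least 1 of those parents is a mature tRNA. This gave 25 of the 591 IDs of the table, each counted once. The libraries are small RNA libraries of brain from C57BL/6 mice, an inbred laboratory strain, at 3 months (n = 3) and at 22 months (n = 3). The labels give no treatment or genetic change for either age, and do not state whether each replicate is its own mouse; a p-value here therefore speaks only of scatter among these 6 libraries. The columns of the table are named WT and Age, and were read as 3 and 22 months. Because brain tissue was used, a change in cell makeup and a change in level per cell cannot be told apart. The table names tRNA fragments only, so the tissue label was not checked against marker genes.

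Transfer RNAs are cut into shorter RNAs by nucleases such as angiogenin, which cleaves in the anticodon loop, and such fragments build up in cells under stress. The histidine tRNA has an extra guanosine added at its 5′ end after transcription, which histidyl-tRNA synthetase uses to recognise it. Its wobble guanosine can be replaced by queuosine, a modified nucleoside whose base comes from diet and gut bacteria. This trait is shared with the tRNAs for asparagine, aspartate and tyrosine. Queuosine has been reported to protect some tRNAs that carry it from cleavage by angiogenin.

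The members fall into 3 families by parent sequence, shown here because which family a fragment belongs to is the only information on its sequence that the table gives. The lines give the mature tRNA from 5′ to 3′ as deposited, in lower case, with the positions at which the 3 families differ in capitals.
His-GTG-2-1: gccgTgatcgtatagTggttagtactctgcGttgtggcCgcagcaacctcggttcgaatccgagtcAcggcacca
His-GTG-1-1: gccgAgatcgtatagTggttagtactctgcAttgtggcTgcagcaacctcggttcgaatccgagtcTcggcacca
His-GTG-3-1: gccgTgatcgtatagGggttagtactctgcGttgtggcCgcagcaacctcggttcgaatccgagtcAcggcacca
Each is 75 nt with its CCA end and 72 nt without it, and the anticodon lies at positions 34 to 36, counted from 1 at the 5′ end. The extra 5′ guanosine is not part of these deposited sequences. Against His-GTG-2-1, His-GTG-1-1 carries T5A, G31A, C39T and A67T, and His-GTG-3-1 carries T16G. The sequence of His-GTG-2-1 is listed under 8 names, His-GTG-2-1 to His-GTG-2-8, and the others under 1 name each, 10 mature names in all, beside 4 precursor names. RefSeq annotates 10 nuclear His-GTG genes of 72 nt on GRCm38 (mm10), 3 between 122375494 and 122378039 on chromosome 2, 6 between 96410069 and 96500437 on chromosome 3, and 1 at 82619623 to 82619694 on chromosome 4. Of these, n-THgtg2 lies in an intron of BC107364, n-THgtg1 in an intron of the long non-coding RNA Gm10685 and n-THgtg10 in an intron of Nfib, while the other 7 overlap no other gene of GENCODE M21. The table does not tie its tRNA names to these loci.

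His-GTG-2 is the parent of 12 members, His-GTG-1-1 of 8 and His-GTG-3-1 of 5. Of the 12, 10 are listed under the same 11 parents, the 8 mature His-GTG-2 names and 3 precursors, and 2, AS-tDR-003596 and AS-tDR-003660, under the 8 mature names only. No ID is listed under both a His-GTG-2 and a His-GTG-3 name, although these tRNAs are identical from position 17 on. Every stretch of 15 to 50 nt that occurs in all 11 of those parents and in no other parent of the table includes position 16, on the 5′ side of the anticodon. The same holds for the 4 IDs listed under His-GTG-3-1 and its precursor. No stretch of that length met this requirement for the 2 IDs under mature His-GTG-2 names only, or for AS-tDR-000087 under mature His-GTG-3-1 only. The start and end of each fragment were therefore not determined. Fragments of 1 family come from the same parent sequence and may overlap, so they were not taken as independent.

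The smallest count above 0 was between 8 and 17 tags per library. It was taken as a listing minimum, a rule that the sources do not state, and a 0 was read as a level below it. Listed tags summed to between 44156 and 96130 per library. The library of 22 month replicate 3 stood apart from the others, with 373 IDs listed against 413 to 463 elsewhere. Values without it are given beside the results that it moves most.

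Histidine fragments took a small share of the listed tags, and this share did not separate the ages. At 3 months, 1065, 606 and 774 tags in replicates 1, 2 and 3 made up 1.85%, 1.34% and 1.75% of the listed tags. At 22 months, 1291, 1271 and 2518 tags made up 1.82%, 1.32% and 2.97%. Replicates 1 and 2 at 22 months lay within or just below the 3 month range, and only replicate 3 lay above it. The mean was 1.65% ± 0.271 (SD, n = 3) at 3 months and 2.04% ± 0.845 (SD, n = 3) at 22 months. Levels are given below as CPM, the tags per 1000000 tags of the tested IDs after TMM scaling, which evens out libraries by their typical ID. CPM is not divided by fragment length, so an order of members is an order of tags. On this scale the members summed to 15440 ± 2002 CPM at 3 months and, with a wider spread, to 22659 ± 10737 CPM at 22 months (SD over 3 libraries). The log2 ratio of 0.55 became 0.09 without 22 month replicate 3. As a share the log2 ratio went from 0.30 to -0.07 without that library. No test was made of this sum, because its members were chosen with earlier results of these data known.

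**Figure D1:**
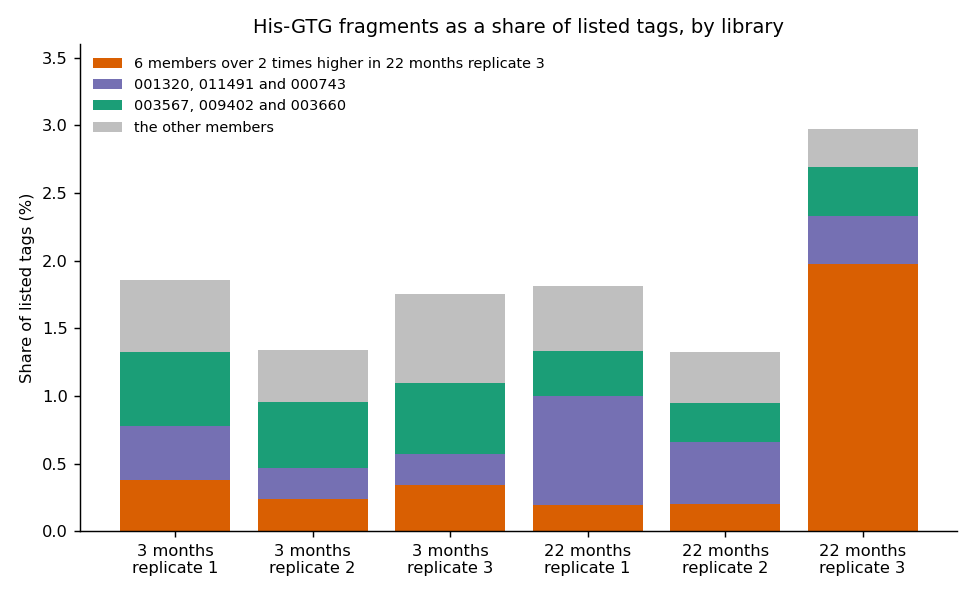
Stacked bars of the percentage of listed tags taken by His-GTG fragments in each library, split into the 6 members over 2 times higher in 22 month replicate 3 than in any other library, 2 sets of 3 members, and the rest. The bar of 22 month replicate 3 reaches 2.97%, and the 6 members make up 1.98% of that library's listed tags against at most 0.381% in any other.

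Of the 25 members, 20 passed the filter on low counts and were tested, and 0 rose and 0 fell with age (edgeR, at a Benjamini-Hochberg adjusted p of 0.05 over all 439 IDs in the test), against 6.61% of all tested IDs past that threshold. The lowest edgeR adjusted p was 0.0489 over all 439 IDs and 0.068 over the 20 members, so every call lay just under the threshold. At an unadjusted p under 0.05 there were 3 of 20, against 25.5% of all tested IDs. DESeq2 and limma-voom, other tests of the same counts, each called 1 member as higher, AS-tDR-001320. The median log2 difference between 22 and 3 months was -0.11 over the 20 and -0.16 over all 439, with 9 positive and 11 negative. Scaling to library size only moved the median of all tested IDs from -0.16 to -0.34, and scaling to the smallest listed count moved it to -0.31, so a difference of a single member is relative to those values. Groups that did not overlap were found for 2 members higher at 22 months, against 19.4% of tested IDs, and for 4 members lower, against 20.0%.

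**Figure D2:**
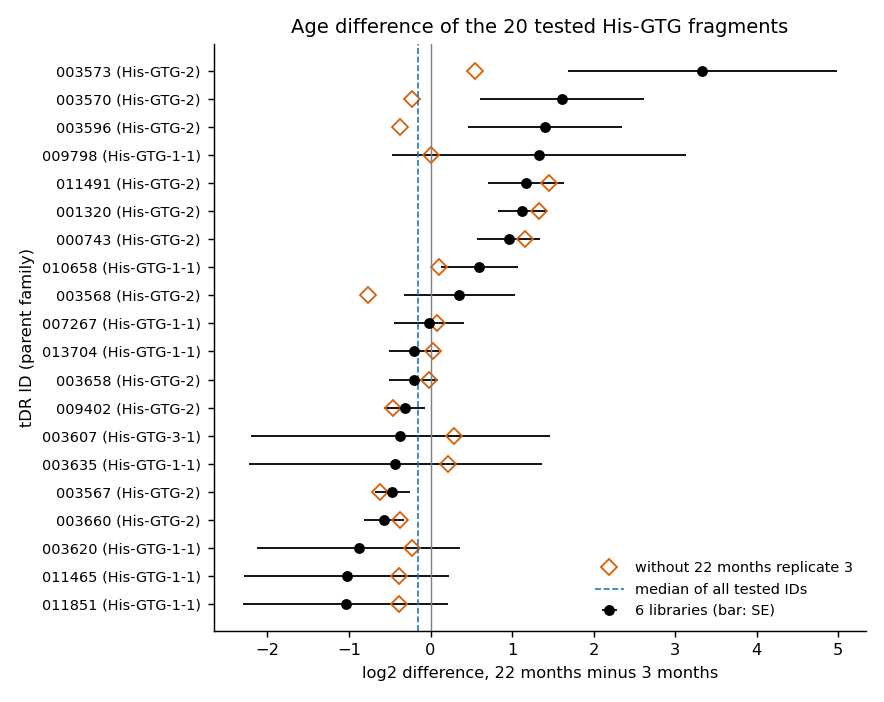
Log2 difference between 22 and 3 months of the 20 tested His-GTG fragments, with bars for the standard error over 6 libraries and diamonds for the fit without 22 month replicate 3. Leaving out that library takes AS-tDR-003573 from 3.34 to 0.55 and turns AS-tDR-003568 from 0.35 to -0.77, while AS-tDR-001320 lies at 1.12 and 1.34.

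Within the His-GTG-2 family, 7 of 11 tested members had a positive log2 difference, against 187 of 439 tested IDs, and none passed the threshold. Without 22 month replicate 3, AS-tDR-003568, AS-tDR-003570 and AS-tDR-003596 among them turned negative. AS-tDR-001320 had the highest mean over the 6 libraries, though at 3 months its mean of 1387 ± 454.5 CPM (SD, n = 3) lay below those of AS-tDR-003567, AS-tDR-003568, AS-tDR-009402 and AS-tDR-003658. AS-tDR-001320 stood at 1902, 1219 and 1041 CPM in 3 month replicates 1, 2 and 3, and at 3411, 3354 and 2322 CPM in those at 22 months. Every library at 22 months lay above every library at 3 months, with the smallest gap between 3 month replicate 1 and 22 month replicate 3. At a log2 difference of 1.12 (SE 0.30), it missed the threshold in edgeR (adjusted p = 0.068). It passed in DESeq2 (adjusted p = 0.00571), in limma-voom (adjusted p = 0.048) and in edgeR restricted to IDs above 0 in all 6 libraries (adjusted p = 0.028), and over all alternatives the edgeR, DESeq2 or limma adjusted p lay between 0.00571 and 0.205. In those 3 settings 13.4%, 5.92% and 13.1% of all tested IDs passed as higher, and 22.1%, 10.5% and 22.4% in either direction. Its direction held in all of them, from 0.92 to 1.43.

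AS-tDR-011491 and AS-tDR-000743, listed under the same 11 parents and singled out after their values were seen, also had higher means at 22 months. AS-tDR-011491 stood at 958.9, 522.3 and 478.7 CPM at 3 months and at 2373, 1151 and 917.7 CPM at 22 months, so the ages overlapped by 1 library on each side. AS-tDR-000743 stood at 815.1, 500.5 and 624.5 CPM at 3 months and at 1942, 881.4 and 973.3 CPM at 22 months, without overlap. Their log2 differences were 1.17 (SE 0.47) and 0.96 (SE 0.39), and neither passed (edgeR, adjusted p = 0.181 for both). In both, replicate 1 was the highest library at its age. When scaled by library size or to the smallest listed count, AS-tDR-001320 and AS-tDR-000743 overlapped between the ages.

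AS-tDR-003567, AS-tDR-009402 and AS-tDR-003658, under the same 11 parents, had lower means at 22 months, and none of them passed the threshold. AS-tDR-003567 stood at 2094, 2089 and 2082 CPM at 3 months and at 1281, 1322 and 1919 CPM at 22 months. The 3 month libraries were nearly equal and all 22 month libraries lay below them, 22 month replicate 3 by the least. The log2 difference, -0.47 with an SE of 0.21, was short of the threshold (edgeR, adjusted p = 0.229). AS-tDR-009402 stood at 1982, 1415 and 1457 CPM at 3 months and at 1106, 1151 and 1641 CPM at 22 months. Here 22 month replicate 3 lay inside the 3 month range, and the log2 difference was -0.32 (SE 0.25, edgeR adjusted p = 0.478). When scaled by library size or to the smallest listed count, every 22 month library of AS-tDR-009402 lay below every 3 month library. AS-tDR-003658 had overlapping ages, with a mean of 1459 ± 485 CPM in young and 1261 ± 269.8 CPM in old brain (SD, n = 3 each).

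AS-tDR-003660, under mature His-GTG-2 names only, had 56, 60 and 61 tags at 3 months and 62, 70 and 46 at 22 months, while every total of listed tags was larger at 22 months. Scaled, it stood at 895, 1306 and 1270 CPM at 3 months and at 836, 856.9 and 639.6 CPM at 22 months, without overlap. The log2 difference was -0.57, with an SE of 0.24 and an edgeR adjusted p of 0.207.

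The balance between these fragments of the His-GTG-2 family can be read within a library, without any scaling. Tags of AS-tDR-001320 per tag of AS-tDR-003567 were 0.908, 0.583 and 0.50 at 3 months and 2.66, 2.54 and 1.21 at 22 months. All 3 libraries at 22 months had more tags of AS-tDR-001320, and all 3 at 3 months had more of AS-tDR-003567. Summed, AS-tDR-001320, AS-tDR-011491 and AS-tDR-000743 gave 230, 103 and 103 tags at 3 months and 573, 440 and 303 at 22 months. AS-tDR-003567, AS-tDR-009402 and AS-tDR-003660 together gave 311, 221 and 231 tags at 3 months and 239, 272 and 302 at 22 months. The ratio of the sums was 0.74, 0.466 and 0.446 at 3 months and 2.4, 1.62 and 1 at 22 months, lowest in replicate 3 at both ages. Over the 6 libraries, log2 CPM of the pairs within the first sum had a Pearson r of 0.82 to 0.95, pairs within the second sum -0.06 to 0.83, and pairs across the sums -0.86 to -0.42. The lowest r within the second sum was that of AS-tDR-009402 and AS-tDR-003660. These values describe 6 libraries in which all IDs share depth and scaling. The members of both sums were chosen after their values were seen, and the ratios were given no test. Choosing them by direction in these same libraries favours a positive r within a sum and a negative r across the sums. The r values and the ratios are therefore a description only.

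**Figure D3:**
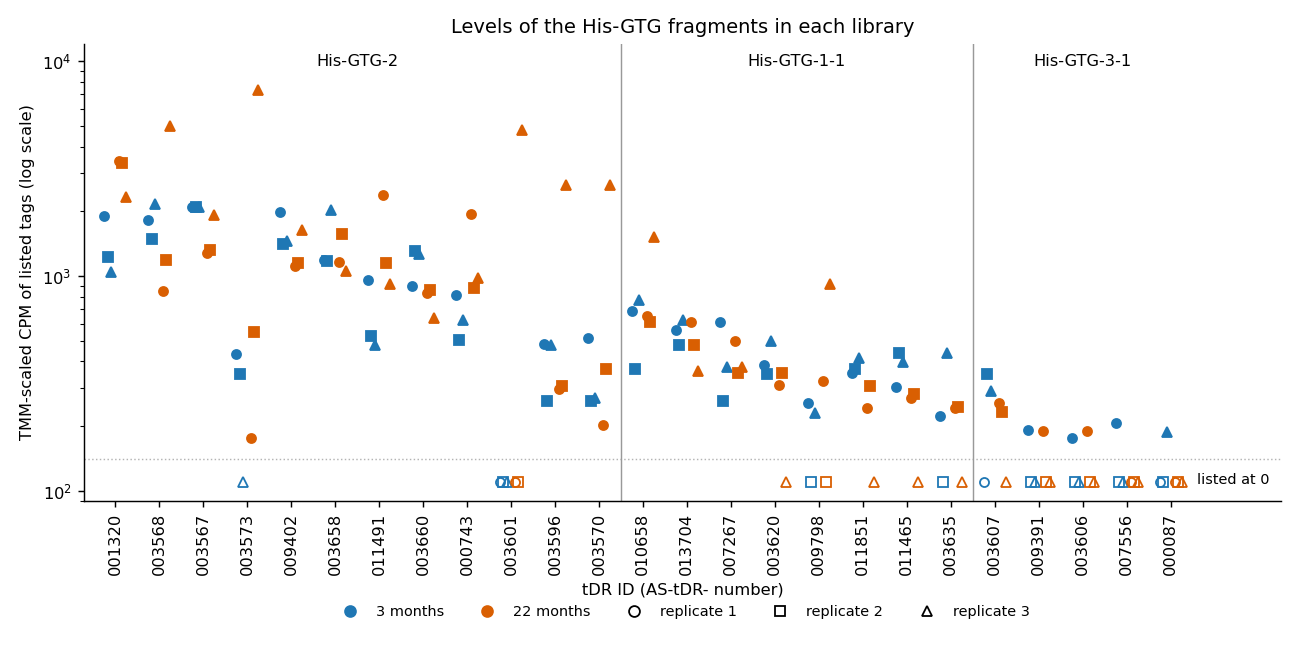
TMM-scaled CPM (log axis) of all 25 His-GTG fragments in each library, by parent family, in order of mean level, with 3 months in blue, 22 months in orange, a symbol for each replicate number, and open symbols for values listed at 0. The orange triangles of 22 month replicate 3 stand far above the rest for AS-tDR-003573, AS-tDR-003601, AS-tDR-003596 and AS-tDR-003570, and at 0 for several His-GTG-1-1 fragments.

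A further set of His-GTG-2 members was high in 22 month replicate 3 alone. AS-tDR-003573 had 27, 16 and 0 tags at 3 months and 13, 45 and 527 tags at 22 months, or 431.5, 348.2 and 0 CPM and 175.3, 550.8 and 7327 CPM. In replicate 3 it was 13.3 times its highest level in any other library and the most abundant member of that library. Of the 20 members it had the highest log2 difference, 3.34 with an SE of 1.65, short of the threshold in edgeR (adjusted p = 0.265), and this was 0.55 without 22 month replicate 3. AS-tDR-003601 was listed only there, with 343 tags and 4769 CPM, and at 0 in the other 5 libraries, so it was not tested.

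AS-tDR-003596 and AS-tDR-003570 had similar values, the first under mature names only and the second under the 11 parents. AS-tDR-003596 stood at 479.4, 261.2 and 478.7 CPM at 3 months and at 296.6, 306 and 2656 CPM at 22 months. AS-tDR-003570 stood at 511.4, 261.2 and 270.6 CPM and at 202.3, 367.2 and 2656 CPM. Without 22 month replicate 3 their log2 differences turned from 1.41 to -0.37 and from 1.61 to -0.22, none past the threshold. AS-tDR-003568, among the 5 most abundant members, stood at 1822, 1480 and 2165 CPM at 3 months and at 849.5, 1187 and 4964 CPM at 22 months. Replicates 1 and 2 at 22 months thus lay below all 3 month libraries and replicate 3 above them, and the log2 difference turned from 0.35 (SE 0.68) to -0.77 without replicate 3 (edgeR, adjusted p = 0.767 and 0.15).

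In all, 6 of the 25 members were over 2 times higher in 22 month replicate 3 than in any other library, against 8.63% of the 591 IDs of the table. Of the 6, 5 are of the His-GTG-2 family and 1, AS-tDR-009798, of His-GTG-1-1. Together they made up 20.6%, 17.8% and 19.5% of the member tags at 3 months, 10.6% and 15.5% in replicates 1 and 2 at 22 months, and 66.5% in replicate 3. The other 19 members summed to 12442 ± 1416 CPM at 3 months and 13476 ± 1941 CPM at 22 months (SD, n = 3 each), with 11721 CPM in 22 month replicate 3. The 6 were picked by their level in that library, so their share there is a description. Whether the state of that library bears on these values was not tested.

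Members of His-GTG-1-1 lay lower in level than most of His-GTG-2, and the family sum did not differ beyond its spread. Its 8 members, all tested, summed to 3372, 2263 and 3747 CPM at 3 months and to 3142, 2632 and 3170 CPM at 22 months. The ages overlapped. As a share of the member tags the family took 19.8%, 17.2% and 23.3% at 3 months, 18.0% and 16.9% in replicates 1 and 2 at 22 months, and 9.05% in replicate 3, the library in which the 6 high IDs enlarged the total. None of the 8 passed, and their median log2 difference was -0.32. The most abundant, AS-tDR-010658, stood at 687.2, 370 and 770.2 CPM at 3 months and at 647.2, 612.1 and 1516 CPM at 22 months, high in replicate 3 only. Its log2 difference was 0.60 (SE 0.47; edgeR adjusted p = 0.487) and 0.10 without that library. The next, AS-tDR-013704, stood at 554.2 ± 73 and 481.9 ± 122.7 CPM (SD, n = 3 each), with overlapping ages.

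The lowest log2 difference of all members belonged to AS-tDR-011851 of His-GTG-1-1, at -1.04 (SE 1.26; edgeR adjusted p = 0.664). It had 22, 17 and 20 tags at 3 months and 18, 25 and 0 tags at 22 months, or 351.6, 370 and 416.3 CPM against 242.7, 306 and 0 CPM. All 22 month libraries lay below all those at 3 months. Without 22 month replicate 3 the difference was -0.39. AS-tDR-011465 and AS-tDR-003620 were listed at 0 in the same library and above 0 in the other 5. These 3 of 25 members compare with 8.97% of the 591 IDs. AS-tDR-003635 was at 0 in 22 month replicate 3 and in 3 month replicate 2, AS-tDR-009798 at 0 in replicate 2 of both ages, and AS-tDR-007267 was listed in all 6 libraries, at 414.4 ± 176.5 and 409.8 ± 77.9 CPM (SD, n = 3 each).

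Fragments of His-GTG-3-1 stayed near the listing minimum. The most abundant, AS-tDR-003607, had 0, 16 and 14 tags at 3 months and 19, 19 and 0 tags at 22 months, and was the only member of the 5 that was tested (log2 difference -0.37, SE 1.83; edgeR adjusted p = 0.905). AS-tDR-009391 and AS-tDR-003606 were listed in replicate 1 of each age only, with between 11 and 14 tags. AS-tDR-007556 had 13 tags in 3 month replicate 1 and AS-tDR-000087 had 9 tags in 3 month replicate 3, and both were listed at 0 elsewhere. All 5 were at 0 in 22 month replicate 3. At this depth no difference between the ages was detectable for this family.

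A further 4 IDs are listed under His-GTG precursors only and are not members. AS-tDR-001324, listed under the 3 His-GTG-2 precursors, had 262, 214 and 197 tags at 3 months and 305, 677 and 233 at 22 months. At 4315 ± 299.6 and 5213 ± 2698 CPM (SD, n = 3 each) its mean level was above that of every member at both ages. The ages overlapped, and 22 month replicate 2, not replicate 3, was its highest library (log2 difference 0.27, SE 0.37; edgeR adjusted p = 0.69). The 3 precursors differ from the mature tRNA by their leader and trailer. Every stretch of 15 to 50 nt found in these 3 and no other listed parent starts at positions 36 to 39 of pre-His-GTG-2-3.

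The other tRNAs that can carry queuosine at the wobble position are those for asparagine (Asn-GTT), aspartate (Asp-GTC) and tyrosine (Tyr-GTA). No difference between their fragments and those of histidine was tested. Of 11 Asn-GTT IDs tested 3 rose, of 9 Asp-GTC IDs 2 rose, of 14 Tyr-GTA IDs 0 rose, and none fell (edgeR). Over all tested IDs 4.78% rose and 1.82% fell. Each of the 5 calls had an edgeR adjusted p of 0.0489, the lowest of all 439 IDs and just under the threshold. Of these 5 IDs, 3 were listed at 0 in every 3 month library, namely AS-tDR-015068 of Asn-GTT and both Asp-GTC IDs, and so passed the filter on low counts only through the 22 month libraries. The other 2, both of Asn-GTT, were AS-tDR-000197, with 24, 27 and 22 tags at 3 months and 97, 92 and 74 at 22 months, and AS-tDR-010797, with 33, 39 and 33 tags and then 149, 132 and 99. With scaling to library size only, 0 of the 5 passed, and with 1 library left out 2 IDs of these families passed without 22 month replicate 3 and 0 without any of the other 5. The median log2 differences were 1.20 for Asn-GTT, -0.01 for Asp-GTC, -0.22 for Tyr-GTA and -0.11 for His-GTG, beside -0.16 for all IDs. Setting IDs listed at 0 in 1 age to their bound left these family medians as they were and gave -0.15 for all IDs.

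Summed per anticodon over IDs that name only that anticodon and at least 1 mature parent, His-GTG ranked 10 of 41 by mean level. These sums are tags, not divided by fragment length. The 3 sums most like it, of the 32 above 0 in all 6 libraries, by Pearson correlation of log2 CPM over the 6 libraries, were Lys-TTT (r = 0.97), Tyr-GTA (r = 0.92) and Gly-GCC (r = 0.83). All 3 had their highest level in 22 month replicate 3, where Tyr-GTA reached 45063 CPM against at most 19695 CPM elsewhere, and Gly-GCC 110190 CPM against at most 51314 CPM. Over the other 5 libraries the correlations were 0.79 for Lys-TTT, -0.81 for Tyr-GTA and 0.18 for Gly-GCC. The likeness of the last 2 therefore rests on that library. All of these sums share the same libraries and scaling.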

How the data were processed

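Total RNA of mouse brain was extracted with Trizol and sequenced as single reads of 50 nt, per the labels' protocols. The submitters' processing notes name FastQC, cutadapt, Novoalign and mm10. How tags were counted and which values were listed is not given in the sources used here. Values are tag counts as deposited, 1 per library for each ID, per the file headers. The table is called normalized in its name, yet it holds whole numbers whose totals differ by library, so it was analysed as raw counts.

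Each of the 591 IDs was counted once. All IDs were fitted together in edgeR 4.0.16 under R 4.3.3 (TMM scaling, filterByExpr at its minimum count of 10, the quasi-likelihood F-test and no replicate term), and p-values were Benjamini-Hochberg adjusted over the 439 IDs kept. Each standard error was taken as the size of the log2 difference over the root of its F statistic. DESeq2 1.42.0 and limma-voom (limma 3.58.1) were alternative tests. The fit was also run on simulated counts with the same spread for all IDs and no listing minimum. That run cannot show how the fit performs on these libraries. Other tables used pandas 2.3.3 and plots matplotlib 3.10.9. Replicates of 1 age differed by more than counting noise. The chi-square per degree of freedom was 6.6 to 10.2 between 3 month libraries and 16.9 between 22 month replicates 1 and 2. It was 54.8 and 59.7 between those 2 and 22 month replicate 3. Listed totals from 44156 to 96130 tags limit the precision. tRNA gene positions are from RefSeq (GRCm38.p6) and overlaps from GENCODE M21.

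The members, lists and alternatives were chosen with earlier results of these data known. Members given in full were the 5 most abundant and those with the highest and the lowest log2 difference; other members named with values were chosen after seeing them. The 6 members high in 1 library, the 2 sums of 3 members and their ratio were also chosen that way.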

Additional observations from a re-analysis of the deposited data

How the results depend on the processing

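Over all IDs, 21 rose and 8 fell, against 38 and 27 among IDs above 0 in all libraries, 28 and 22 with each 0 replaced by 1 tag below the listing minimum, 59 and 38 in DESeq2, and 26 and 20 in limma-voom. With library size only, scaling to the smallest listed count, no filter on low counts, or a replicate block, 0 rose and 0 fell, and with 1 library left out 0 to 9 rose and 0 to 7 fell, 0 and 0 without any 3 month library or 22 month replicate 1, 9 and 5 without 22 month replicate 2, and 4 and 7 without 22 month replicate 3. Among the His-GTG members 1 rose in DESeq2, in limma-voom and among IDs above 0 in all libraries, and 0 rose in every other setting and 0 fell in any. In the 4 queuosine families 5 of 54 tested IDs rose and 0 fell, where 4.78% of all tested IDs rose. Among IDs above 0 in all libraries 7 of 40 rose and 1 fell, where 13.1% of all rose. In DESeq2 11 of 54 rose and 1 fell, where 13.4% of all rose. In limma-voom 4 of 54 rose and 1 fell, where 5.92% of all rose. In these families 0 rose and 0 fell with library size only, scaling to the smallest listed count, no filter or a replicate block. With 1 library left out 0 to 2 rose. Of 207 repeated values of 15 named members, 197 kept direction and side of the threshold, 3 passed it (all AS-tDR-001320) and 7 changed sign. AS-tDR-003568 went to -0.075 with a replicate block and to -0.073 in limma-voom. With 1 library left out it lay between -0.77 and 0.86, AS-tDR-003570 between -0.22 and 2.19, AS-tDR-003596 between -0.37 and 1.95 and AS-tDR-013704 between -0.29 and 0.026, and the sign changed in all 4 without 22 month replicate 3. AS-tDR-003658 lay between -0.39 and 0.095 and changed sign without 3 month replicate 3. The cause was not tested. The log2 ratio of the summed level lay between 0.09 and 0.76, and that of the share between -0.07 and 0.54, with 1 library left out, and between 0.19 and 0.48 under the other member rules and scalings. The labels give replicate numbers but state no pairing of the samples. Deviations of same-numbered libraries from their age means correlated at -0.54, 0.14 and -0.37 over 290 IDs. Those of 3 month replicate 1 and 22 month replicate 3 correlated at 0.45, and those of 3 month replicate 3 and 22 month replicate 1 at 0.52. Such correlations cannot decide a pairing, so the block fit, in which 0 IDs rose and 0 fell, is an alternative only. Tags near the listing minimum limit what the His-GTG-1-1 and His-GTG-3-1 families can show.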
